A study of Rattus norvegicus with 4 samples.

Results

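The genes described here are 10 transcription factors known for giving sensory neurons their identity, Runx1, Runx3, Pou4f1, Pou4f2, Pou4f3, Isl1, Etv1, Tlx3, Prdm12 and Shox2. They were picked by name: each of the 10 symbols matched 1 of the 25629 features in the files. Their levels were read in single cells of rat dorsal root ganglia, which lie along the spinal cord and hold the cell bodies of sensory neurons. The CPIP group and the Sham group each had 2 libraries of ipsilateral L4 to L6 ganglia, and each library pooled 3 rats. All were wild-type male Sprague-Dawley (SD) rats, whose age and time after the procedure are not given in the labels used here. The labels do not spell out CPIP, a common abbreviation of chronic post-ischaemia pain, a model in which a hind limb is deprived of blood and then reperfused. Rats cannot be told apart within a library, so the spread between libraries is a spread between pools of rats.

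In the embryo, sensory neurons arise as one broad class, and the general factors Isl1 and Pou4f1 mark nearly all of them in mice. Selector factors then divide this class: in mice, Runx1, Prdm12 and Tlx3 are known for nociceptor and itch lineages, Runx3 and Etv1 for proprioceptors, which sense muscle stretch, and Shox2 for touch neurons with the receptor TrkB. Such factors bind DNA near the genes that define a subtype, such as ion channels and receptors of growth factors, and several stay on in the adult ganglion.

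After cell filters and removal of called doublets, 11907 and 11691 cells remained in CPIP 1 and CPIP 2, and 10976 and 10985 in Sham 1 and Sham 2. The libraries held 60885664 to 64550637 unique molecular identifiers (UMIs, each 1 captured RNA molecule), with a median of 3531 to 4141.5 per barcode. Clusters named from marker genes gave 10776 neurons, with a median of 5836 UMIs. Among them were 11 neuron subtypes with at least 30 cells in every library, labelled from their leading genes. By marker score against the other neurons, non-myelinating Schwann cell markers came first in the S100a16-Sema5a cluster (0.496 on a log2 scale). They also came first in the Kcnv1-Htr1b cluster (0.660), which had medians of 2164 UMIs and 1.87% mitochondrial UMIs. The Kcnv1-Htr1b and Mrgprb4 clusters got no name from that score. All 10 neuron markers in the files were detected in the neurons of each library. The 10 factors were kept out of the genes used for clustering, but a cluster and its factors were read in the same cells, so levels across subtypes are described without a test. Levels are on the CPM scale, a gene's share of all UMIs of the cell group, given as the mean ± SD over the 4 libraries unless a library is named, and they are compared within a gene only, since captured counts differ between genes for technical reasons. RNA of markers of satellite glia, the cells that wrap each neuron, was found in the neuron barcodes. Where it came from was not tested. The summed level of 8 satellite glia markers was 509 and 565 CPM in CPIP 1 and CPIP 2 neurons and 419 and 511 CPM in Sham 1 and Sham 2 neurons, against a mean of 11476 CPM in satellite glia.

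RefSeq promoter sequences were taken for 9 of the 10 genes, all but Shox2, as 11 start sites, since a gene can have more than 1. The 250 bases before the start are shown for Runx3, Runx1 and Etv1, a pair of runt-domain factors and the ETS factor whose subtype levels are described next. They are written 5′ to 3′ on the gene's own strand, build GRCr8, and capitals mark the RUNX motif, TGTGGT or its reverse complement ACCACA. The windows lie at chr5:152644020-152644269 on the plus strand for the first Runx3 start site, at chr11:45421326-45421575 on the minus strand for Runx1 and at chr6:61317179-61317428 on the plus strand for Etv1.
Runx3, first start site: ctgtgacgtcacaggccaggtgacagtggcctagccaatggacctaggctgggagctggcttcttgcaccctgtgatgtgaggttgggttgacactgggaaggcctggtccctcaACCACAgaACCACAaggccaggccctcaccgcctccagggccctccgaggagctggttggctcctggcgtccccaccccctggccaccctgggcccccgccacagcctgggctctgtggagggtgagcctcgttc
Runx1: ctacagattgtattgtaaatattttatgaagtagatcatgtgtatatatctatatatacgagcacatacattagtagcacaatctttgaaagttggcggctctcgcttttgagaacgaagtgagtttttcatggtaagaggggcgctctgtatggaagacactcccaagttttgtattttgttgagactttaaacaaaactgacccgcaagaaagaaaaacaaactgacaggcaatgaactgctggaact
Etv1: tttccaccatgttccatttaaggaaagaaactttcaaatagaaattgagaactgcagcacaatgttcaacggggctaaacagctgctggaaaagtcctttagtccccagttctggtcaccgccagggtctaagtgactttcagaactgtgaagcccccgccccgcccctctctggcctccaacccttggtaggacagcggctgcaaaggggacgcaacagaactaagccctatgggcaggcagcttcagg

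The first Runx3 window held 2 RUNX motifs, at positions 116 and 124 counted from its 5′ end, and no other of the 11 windows held one. Of all 33469 promoter windows of the same length, 14.5% held the motif and 1.43% held it 2 or more times. The homeodomain motif TAATTA was in none of the 11 windows and in 4.86% of all. The ETS motif CCGGAA was in the window of Prdm12 alone and in 12.6% of all. Both strands were searched. The GC content was 66.4% in the first Runx3 window, 37.2% in the Runx1 window and 52.4% in the Etv1 window, against a median of 51.2% over all windows.

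**Figure D1:**
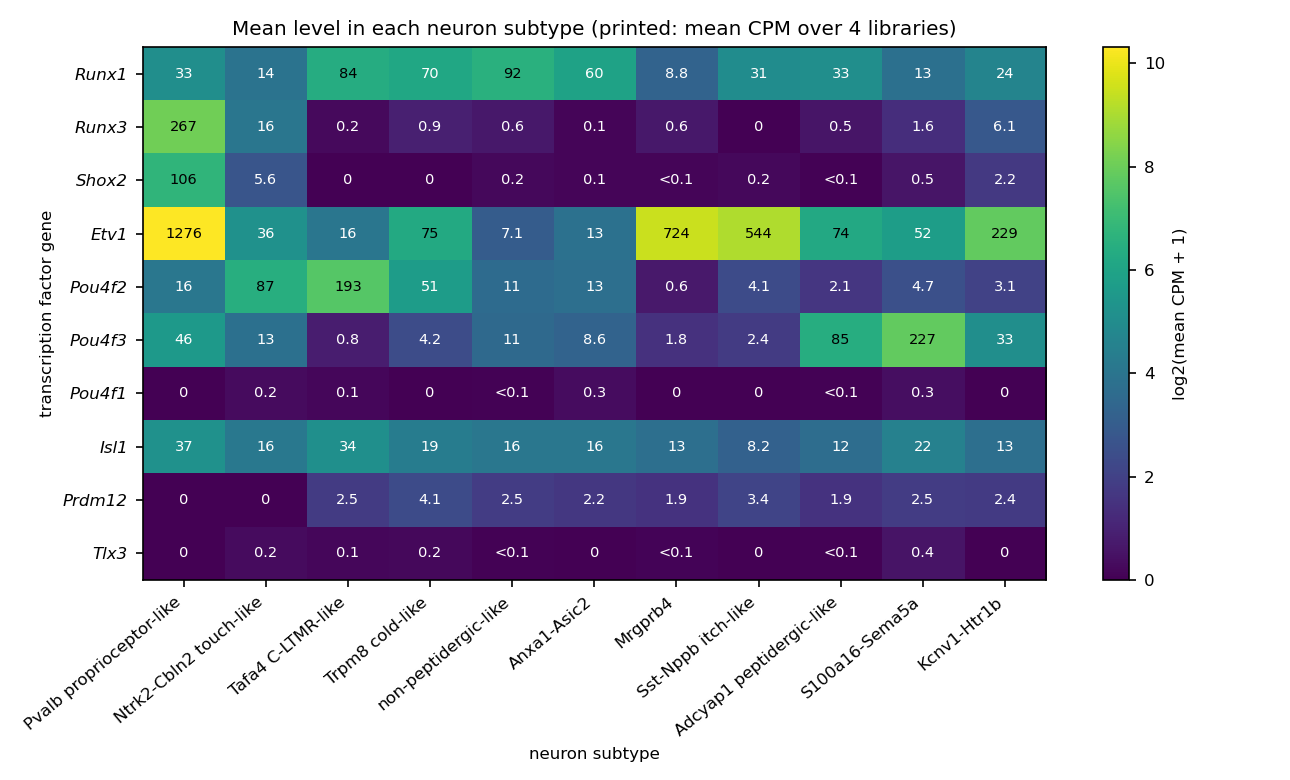
Heat map of the mean level of each transcription factor gene (down the page) in each of 11 neuron subtypes (across), coloured by log2 of the mean CPM plus 1 and printed as the mean CPM over 4 libraries. Runx3 and Shox2 were highest in the Pvalb subtype, Pou4f2 in the Tafa4 subtype and Pou4f3 in the S100a16-Sema5a subtype, while Pou4f1 and Tlx3 were near 0 in all.

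Runx3 and Shox2 were concentrated in 1 small subtype, the 349 proprioceptor-like neurons marked by Pvalb, the calcium-binding protein of muscle afferents. In these neurons Runx3, known in mice for keeping the TrkC-positive proprioceptor lineage apart from TrkB-positive neurons, stood at 264 and 232 CPM in CPIP 1 and CPIP 2 and at 329 and 242 CPM in Sham 1 and Sham 2. All 4 libraries lay above every library of the next subtype, the touch-like neurons marked by Ntrk2 and Cbln2, where Runx3 averaged 15.5 ± 18.9 CPM. That spread came from Sham 1 with 43.7 CPM, while the other libraries had 2.88 to 8.75 CPM. The Kcnv1-Htr1b neurons had 6.07 ± 5.45 CPM, the other subtypes at most 1.56 CPM, and the Sst-Nppb itch-like neurons had no Runx3 UMI. The Pvalb subtype gave 437 of the 570 Runx3 UMIs of all neurons, 76.7%, and the touch-like subtype 10.5%.

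Shox2 followed the same order at its top. In Pvalb neurons it had 99.9 and 106 CPM in CPIP 1 and CPIP 2 and 123 and 93.3 CPM in Sham 1 and Sham 2. The touch-like neurons, the Ntrk2-positive population that Shox2 is known for in mice, held 5.61 ± 4.22 CPM, and no library there reached the Pvalb level. The Kcnv1-Htr1b neurons had 2.24 CPM, the remaining subtypes at most 0.486 CPM, and the Tafa4 and Trpm8 subtypes no UMI. The Pvalb subtype gave 178 of 215 Shox2 UMIs, 82.8%. Runx3 was also among the 10 leading genes of the Pvalb cluster. A UMI of Runx3 was found in 52.1% of Pvalb neurons and a UMI of Shox2 in 30.1%, at a median of 3050 UMIs per cell.

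Etv1, an ETS factor that in mice is needed for proprioceptors to reach their motor neuron targets, was highest in the Pvalb neurons too but not concentrated there. It averaged 1276 ± 275 CPM in Pvalb neurons, with 1253 and 1323 CPM in CPIP 1 and CPIP 2 and 929 and 1598 CPM in Sham 1 and Sham 2. The Mrgprb4 neurons, named for a receptor of gentle-touch C fibres in mice, followed with 724 ± 57.0 CPM. The Sst-Nppb itch-like neurons, named for the itch peptides somatostatin and natriuretic peptide B, had 544 ± 77.3 CPM, and the Kcnv1-Htr1b neurons 229 ± 35.5 CPM. Each of these levels lay above the next in every library, and the ranges did not overlap. The order below them was Trpm8 neurons with 75.3 ± 33.9 CPM, Adcyap1 peptidergic-like neurons with 74.0 ± 12.4 CPM, S100a16-Sema5a neurons with 52.1 ± 26.7 CPM and touch-like neurons with 36.2 ± 19.2 CPM, and these neighbours overlapped. Etv1 was lowest in the non-peptidergic-like neurons, with 7.08 ± 1.35 CPM. Of all Etv1 UMIs in neurons, 45% came from the Mrgprb4 subtype, 18.1% from the Sst-Nppb subtype and 10.5% from the Pvalb subtype, and Etv1 was among the leading genes of the Mrgprb4 cluster. A UMI of Etv1 was seen in 92.5% of Mrgprb4 neurons and 89.0% of Sst-Nppb neurons.

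Runx1, the runt-domain factor that in mice is known for the Ret-positive nociceptor lineage and for turning on Mrgpr and Trp genes, was highest where Etv1 was lowest. The non-peptidergic-like neurons had 91.2 and 97.9 CPM in CPIP 1 and CPIP 2 and 89.2 and 88.3 CPM in Sham 1 and Sham 2. The Tafa4 neurons, which resemble C low-threshold mechanoreceptors (C-LTMR) by part of the listed markers, had 83.9 ± 6.34 CPM. The Trpm8 cold-like neurons had 70.5 ± 16.1 CPM and the Anxa1-Asic2 neurons 60.2 ± 4.91 CPM. These neighbours overlapped between libraries, while every library of the Anxa1-Asic2 neurons lay above every library of the next subtype. That next group held the Pvalb neurons with 33.5 ± 13.1 CPM, the Adcyap1 neurons with 33.2 ± 1.69 CPM and the Sst-Nppb neurons with 31.4 ± 3.36 CPM, without a gap between them. Runx1 was lowest in the touch-like neurons with 14.3 ± 6.41 CPM, the S100a16-Sema5a neurons with 13.1 ± 4.11 CPM and the Mrgprb4 neurons with 8.80 ± 3.68 CPM. The non-peptidergic-like subtype gave 35.0% and the Adcyap1 subtype 15.4% of the Runx1 UMIs of neurons. Mrgprd, a marker of the non-peptidergic class and a known Runx1 target in mice, reached at most 0.304 CPM in any subtype, and whether the annotation takes up its RNA was not tested.

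**Figure D2:**
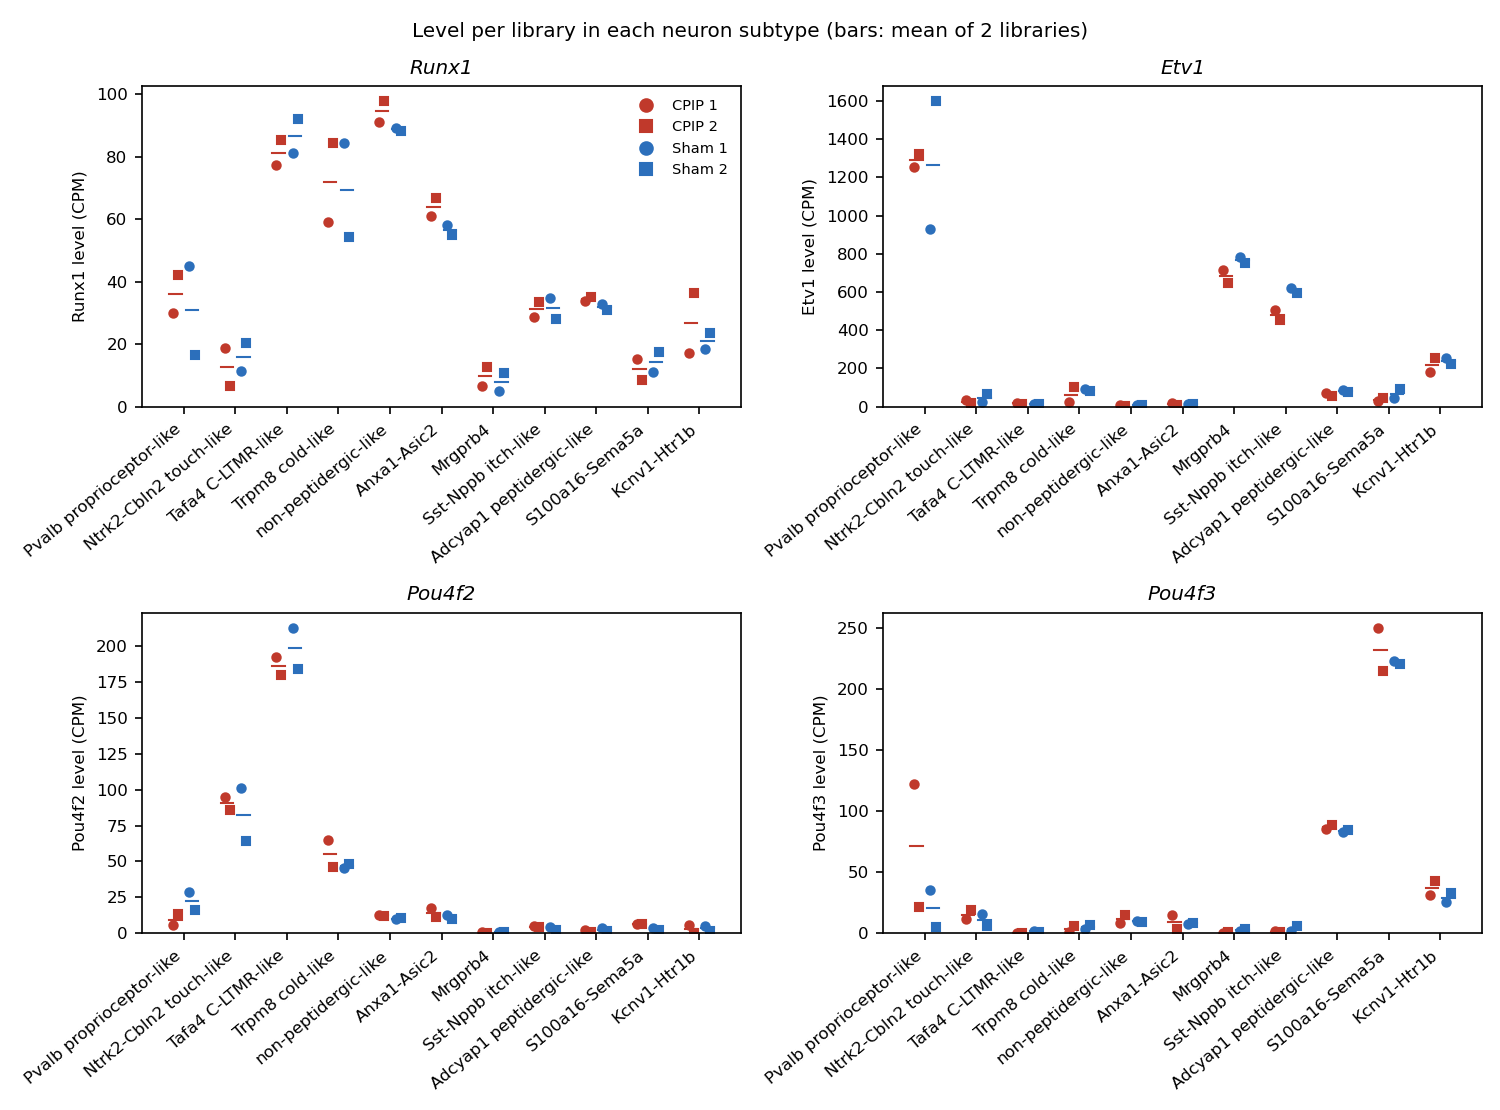
Level in CPM (vertical axis) of Runx1, Etv1, Pou4f2 and Pou4f3 in 11 neuron subtypes, 1 point per library, with CPIP left of Sham and a bar at the mean of the 2 libraries of a group. Etv1 was at 724 ± 57.0 CPM in Mrgprb4 neurons, where Runx1 was at 8.80 ± 3.68 CPM, and Pou4f3 was at 227 ± 15.8 CPM in S100a16-Sema5a neurons, where Pou4f2 was at 4.66 CPM.

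The POU-domain factors Pou4f2 and Pou4f3, best known in mice for retinal ganglion cells and for auditory hair cells, were highest in different subtypes. Pou4f2 stood at 193 and 180.2 CPM in CPIP 1 and CPIP 2 and at 213 and 184 CPM in Sham 1 and Sham 2 in the Tafa4 neurons, above every library of the next subtype. The touch-like neurons had 86.6 ± 16.2 CPM and the Trpm8 neurons 51.1 ± 9.32 CPM, higher in the touch-like neurons within each of the 4 libraries although the ranges overlapped. The Trpm8 neurons were separate from the Pvalb neurons, with 16.2 ± 9.63 CPM. Pou4f2 was at 2.08 ± 1.06 CPM in the Adcyap1 neurons and at 0.629 CPM in the Mrgprb4 neurons. More than any other subtype, the Tafa4 neurons supplied its UMIs, with 52.1% of those of all neurons, and 66.7% of them had a Pou4f2 UMI.

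Pou4f3 was highest in the S100a16-Sema5a neurons, with 250.3 and 215 CPM in CPIP 1 and CPIP 2 and 223 and 220.5 CPM in Sham 1 and Sham 2. The Adcyap1 peptidergic-like neurons, named for the peptide PACAP, followed with 85.5 ± 2.52 CPM and no overlap. In the Pvalb neurons Pou4f3 had 122 and 21.9 CPM in CPIP 1 and CPIP 2 and 35.5 and 5.49 CPM in Sham 1 and Sham 2, so the libraries were spread more widely there than in any other subtype. The Kcnv1-Htr1b neurons had 33.1 ± 7.04 CPM, and Tafa4 neurons, where Pou4f2 was highest, had 0.754 CPM of Pou4f3. The Adcyap1 subtype gave 49.0% and the S100a16-Sema5a subtype 32.9% of Pou4f3 UMIs. A UMI of Pou4f3 was found in 62.2% of S100a16-Sema5a neurons.

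Isl1, the LIM-homeodomain factor of nearly all sensory neurons in mice, was detected in all 11 subtypes. It ran from 36.8 ± 7.73 CPM in Pvalb neurons and 34.4 ± 5.80 CPM in Tafa4 neurons down to 8.19 ± 3.38 CPM in Sst-Nppb neurons, and each subtype overlapped its neighbour in the order. Every library of the Tafa4 neurons lay above every library of 8 other subtypes, all but the Pvalb and S100a16-Sema5a neurons. Prdm12, a zinc-finger factor needed for nociceptors in mice and mutated in an inherited human insensitivity to pain, was low. It was at 4.10 ± 0.657 CPM in Trpm8 neurons, 3.35 ± 1.60 CPM in Sst-Nppb neurons and at least 1.86 CPM in 7 other subtypes. No Prdm12 UMI was found in the Pvalb neurons or the touch-like neurons, the subtypes with Runx3 and Shox2. These subtypes had 349 and 492 cells. For a gene as low as Prdm12, a count of 0 in so few cells is no measure of absence. Tlx3, which in mice fixes the glutamatergic and itch fates, and Pou4f1, the general POU factor, were close to undetected. Pou4f1 had 2, 2, 3 and 1 UMIs in the neurons of CPIP 1, CPIP 2, Sham 1 and Sham 2, and Tlx3 had 1, 3, 1 and 3. These are at or under the limit of 3 counts that a library with none would allow, 0.112 to 0.130 CPM. The annotation behind the counts is not named in the labels, so it was not tested whether its gene models take up all RNA of these genes, and a count near 0 is no measure of absence.

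Across the 11 subtype means, on the scale of log2(CPM + 1), the profiles of Runx3 and Shox2 had a Pearson correlation of 0.988. In single libraries it was 0.878 to 0.986. Those of Pou4f2 and Isl1 had 0.617, with 0.276 to 0.579 in single libraries, and those of Runx1 and Pou4f2 had 0.50, with 0.214 to 0.576. Negative values were found for Runx1 and Etv1 with -0.538 (-0.816 to -0.246 in single libraries), for Pou4f2 and Etv1 with -0.480 (-0.619 to -0.439) and for Pou4f2 and Pou4f3 with -0.349 (-0.577 to -0.237). The subtypes share libraries and differ in depth, and the values are a description of 11 points. Among 7130 genes with at least 20 CPM in a subtype, Shox2 itself, Kcns1 (0.981) and Hapln4 (0.979) had the profiles most like Runx3. Those most like Shox2 were Runx3, Smpx (0.984) and Ano1 (0.978). Cdh1 (0.893), Lrrtm2 (0.877) and Chrne (0.848) were most like Runx1. Pou4f2 was most like Oxct1 (0.921), Gclc (0.912) and Spry2 (0.911). Pou4f3 was most like Bcl11a (0.913), a zinc-finger repressor gene, followed by Cops6 (0.885) and Ppme1 (0.880). Alg3 (0.914), C2h1orf52 (0.911) and Rab11fip2 (0.909) were closest to Isl1, and AABR07031491.2 (0.893), Pkp1 (0.886) and Hibch (0.864) to Etv1.

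Whether the factors were found in the same neurons was read after each neuron was thinned to 4000 UMIs. This left 8374 neurons: 2100 and 1771 in CPIP 1 and CPIP 2 and 2376 and 2127 in Sham 1 and Sham 2. Neurons with fewer UMIs were left out. The median was 3050 UMIs in Pvalb neurons and 2164 in Kcnv1-Htr1b neurons, against 14009 in Trpm8 neurons. Most Pvalb and Kcnv1-Htr1b neurons were thus missing from every result at 4000 UMIs. The number of neurons with a UMI of both genes was divided by the number expected if their shares were independent. Of 45 pairs, 12 had at least 5 expected neurons in every library, and 7 of these lay on the same side of 1 in all 4 libraries. Expecting within each subtype separately removes the part set by the subtypes themselves.

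Etv1 was found less often than expected with 3 other factors. Pou4f2 and Etv1 shared 50 neurons against 162 expected, a mean ratio of 0.301 ± 0.0543 over libraries, and 0.693 within subtypes. Runx1 and Etv1 shared 213 neurons against 444 expected, a ratio of 0.488 ± 0.107, and 0.870 within subtypes. Pou4f3 and Etv1 had a ratio of 0.570 ± 0.0835, and 0.749 within subtypes. At 4000 UMIs these pairs thus stayed below 1 on average within subtypes, but nearer to it. Without thinning the ratios within subtypes were 1.01 for Pou4f2 with Etv1, 1.02 for Runx1 with Etv1 and 0.981 for Pou4f3 with Etv1.

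Pou4f2 and Pou4f3 shared 33 neurons against 53.4 expected, a ratio of 0.619 ± 0.128, but within subtypes the ratio was 1.09 ± 0.0379 and above 1 in all 4 libraries. At 8000 UMIs the ratio within subtypes was 0.975, so its direction turned with the depth, and at 2000 UMIs the ratio over all neurons was 0.961 with libraries on both sides of 1. Runx1 and Pou4f3 had 0.672 ± 0.144, a value that turned to 1.06 without thinning, so its direction rested on the depth setting. Pairs above 1 were Runx3 with Etv1, at 1.97 ± 0.481, and Pou4f2 with Isl1, at 1.34 ± 0.234. Within subtypes these had 0.971 and 0.940. At 2000 UMIs Pou4f2 with Isl1 had a mean of 1.02 with libraries on both sides of 1, and Runx3 with Etv1 had 2.47 with a lowest library of 0.843. Runx3 and Shox2 were too sparse for that rule, but 32 thinned neurons held both, against 1.09 expected over all neurons and 33.9 expected within subtypes.

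**Figure D3:**
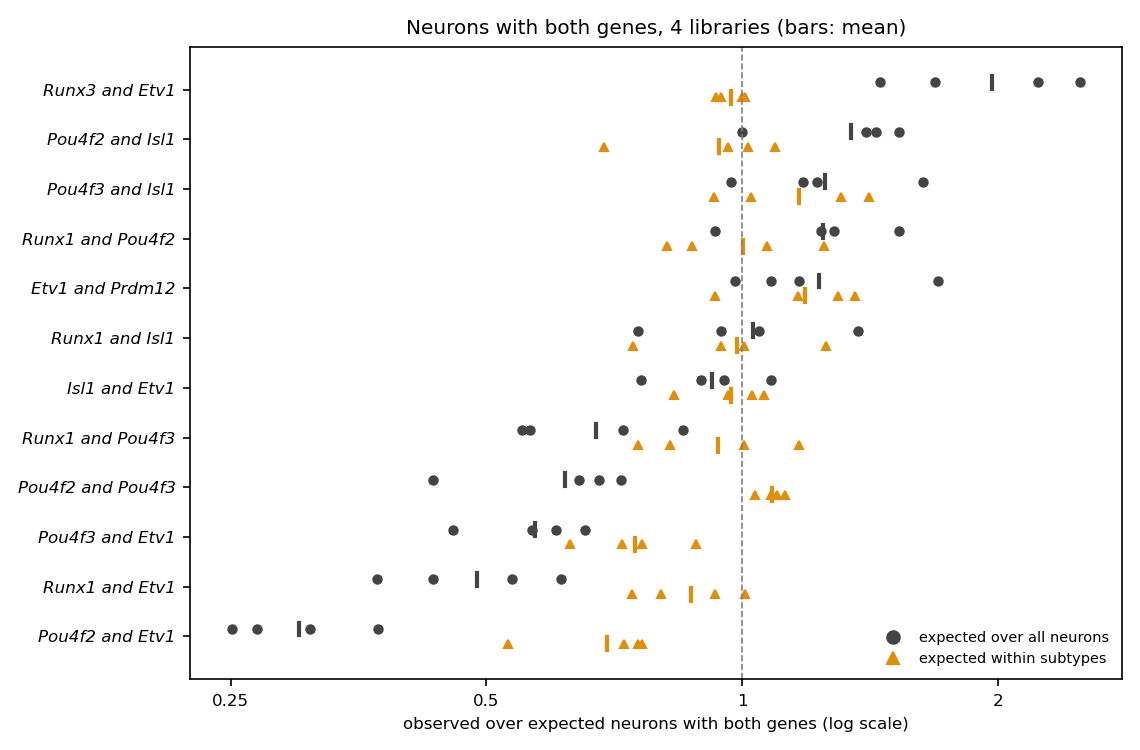
Observed over expected number of neurons with a UMI of both genes (horizontal log axis) for the 12 pairs (down the page), 1 point per library, with bars at the mean. Circles take the expected number over all neurons and triangles within subtypes. The circles of Pou4f2 with Etv1 lay lowest, at a mean of 0.301, and the triangles of most pairs lay nearer to 1.

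Genes of the receptors, channels and peptides that carry sensory function were read in neurons with and without a UMI of each factor, in thinned neurons and with no use of the clusters. For the 5 factors with at least 20 positive neurons in every library, 100 pairs of a factor and 1 of 20 such genes were compared. The share of cells was higher in positive neurons of all 4 libraries for 25 pairs and lower for 37, and 38 pairs differed in direction. A 4-library exact sign-flip permutation test cannot give a two-sided p below 0.125, or 0.323 after Benjamini-Hochberg adjustment over the pairs of all the factors read, so none of these differences could pass 0.05.

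The 1477 Runx1-positive neurons held the receptor Ret in 45.7% ± 5.27, against 36.0% ± 1.66 of Runx1-negative neurons (SD, n = 4 libraries). They more often held the sodium channel Scn11a, 75.9% ± 3.02 against 64.2% ± 3.29, and less often Mrgprb4, 6.42% ± 1.82 against 16.3% ± 3.41. The neurofilament Nefh, a marker of large neurons, was in 13.7% ± 1.02 of Runx1-positive and 22.2% ± 3.84 of Runx1-negative neurons. Of the 20 genes, 6 were higher and 9 lower in Runx1-positive neurons of all 4 libraries.

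The 2519 Etv1-positive neurons showed the opposite for Mrgprb4, found in 32.2% ± 7.01 of them and in 6.99% ± 1.92 of Etv1-negative neurons. The peptide Sst was in 24.0% ± 2.61 against 5.01% ± 1.25, and the itch peptide Nppb in 6.50% ± 2.20 against 0.698% ± 0.350. The heat and capsaicin channel Trpv1 was in 10.3% ± 1.93 of Etv1-positive and 21.0% ± 1.88 of Etv1-negative neurons. Each of these differences had the same direction in 4 of 4 libraries.

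The 541 Pou4f2-positive neurons held Tafa4, a secreted C-LTMR protein, in 28.1% ± 3.21 against 4.94% ± 0.875 of Pou4f2-negative neurons, and the BDNF receptor Ntrk2 in 30.3% ± 4.52 against 12.3% ± 1.26. The peptide gene Calca was in 59.4% ± 7.14 of them, against 90.6% ± 1.57. In the 826 Pou4f3-positive neurons the pattern for Calca was the reverse, 94.8% ± 1.32 against 87.8% ± 2.06. Pou4f3-positive neurons less often held the channel P2rx3, 54.0% ± 1.79 against 74.2% ± 2.43. The 534 Isl1-positive neurons differed in 1 direction for 5 of 20 genes, among them Tafa4 with 10.2% ± 2.01 against 6.15% ± 0.967. Runx3 had at least 20 positive neurons in 3 libraries, 107 neurons together, where Pvalb was in 60.9% ± 14.1 of them against 1.43% ± 0.760, and the neurotrophin-3 receptor Ntrk3 in 28.7% ± 5.18 against 2.36% ± 0.390 (SD, n = 3).

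Some of the factors were as high or higher outside neurons. Runx3 stood at 632 ± 55.8 CPM in macrophages and 578 ± 43.8 CPM in other leukocytes, which is more than its level in Pvalb neurons, and at most at 3.50 CPM in the other non-neuronal classes with usual depth. Runx1, a regulator of blood cell formation, had 324 ± 44.9 CPM in macrophages and 112 ± 13.5 CPM in satellite glia, against 47.2 ± 1.52 CPM in all neurons. Etv1 was at 465 ± 113 CPM in non-myelinating Schwann cells, 405 ± 8.21 CPM in an unnamed glia-like class with Sox10 and Pou3f2, 358 ± 32.9 CPM in fibroblasts and 344 ± 11 CPM in satellite glia. The 8 satellite glia markers averaged from 204 CPM in Mrgprb4 neurons, where Etv1 was high, to 1039 CPM in Tafa4 neurons, where Etv1 was low. The 9 macrophage markers summed to 10.1 to 14.6 CPM in neurons, against 27654 CPM in macrophages.

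**Figure D4:**
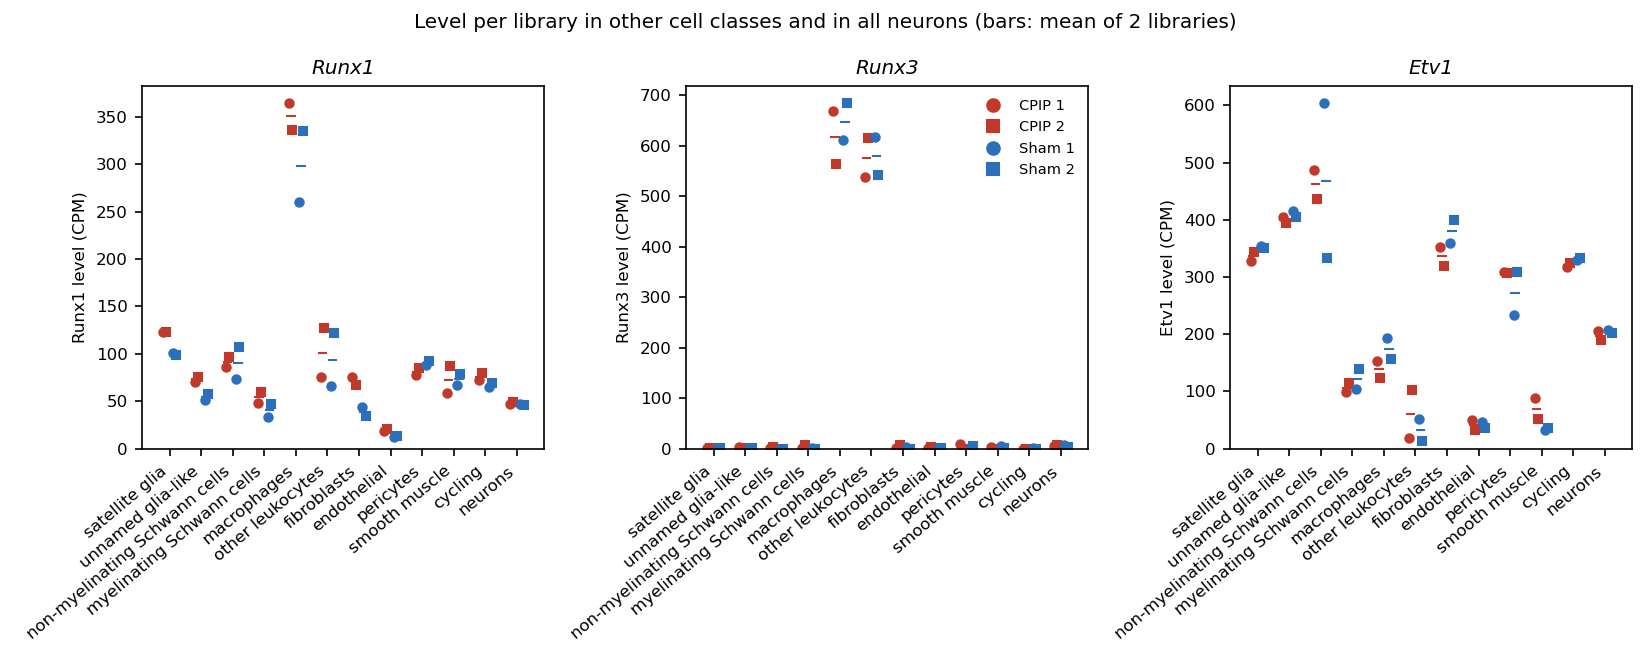
Level in CPM (vertical axis) of Runx1, Runx3 and Etv1 in non-neuronal classes and in all neurons, 1 point per library, with CPIP left of Sham and a bar at the mean of the 2 libraries of a group. Runx3 was at 632 ± 55.8 CPM in macrophages, and in satellite glia Runx1 was at 123 and 123 CPM in CPIP 1 and CPIP 2 and at 101 and 99.0 CPM in Sham 1 and Sham 2.

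Between CPIP and Sham neurons no factor passed the test. The levels were summed over the neurons of each library and tested with edgeR's quasi-likelihood test, Benjamini-Hochberg adjusted over all 13692 genes tested. Of the 10 factors 8 passed the filter on low counts, all but Pou4f1 and Tlx3, and none was called, as was no gene at all (0% of those tested), while 518 genes had an unadjusted p under 0.05 and DESeq2 called 11. Runx1 had 46.6 and 49.3 CPM in CPIP 1 and CPIP 2 and 47.1 and 45.8 CPM in Sham 1 and Sham 2, a log2 fold change of 0.05 ± 0.08 (SE) with an edgeR adjusted p of 0.991. Etv1 had 205 and 189 CPM in CPIP neurons and 207 and 202 CPM in Sham neurons, a log2 fold change of -0.04 ± 0.08 (edgeR adjusted p = 0.991). The groups overlapped for both genes. The count of calls rested on 1 library: without CPIP 1 the same test called 787 genes, Shox2 among them with a log2 fold change of 1.43 (edgeR adjusted p = 0.0311). Leaving out CPIP 2 gave 70 calls and no factor. In such fits the lone library of a group is assumed to vary like the others.

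Pou4f2, Isl1 and Prdm12 likewise had overlapping groups and log2 fold changes of 0.07 ± 0.17, 0.08 ± 0.12 and 0.09 ± 0.22 (SE). Pou4f3 had 37.6 and 43.9 CPM in CPIP 1 and CPIP 2 and 35.6 and 36.3 CPM in Sham 1 and Sham 2. Both CPIP libraries lay above both Sham libraries, but the log2 fold change was 0.19 ± 0.10 with an edgeR adjusted p of 0.971. Over the 8 factors the median log2 fold change was 0.09, 7 being positive, beside a median of 0.00 over all genes tested. In 2 of the 8 both CPIP libraries were above both Sham libraries and in none below, beside 15.1% and 17.7% of all genes tested.

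Shox2 was the other gene without overlap, with 2.40 and 3.65 CPM in CPIP neurons and 1.79 and 0.899 CPM in Sham neurons. Its log2 fold change was 1.16 ± 0.39, with a p of 0.0277 before and 0.971 after edgeR's adjustment. Runx3, with 6.16 and 8.08 CPM in CPIP neurons and 6.28 and 2.42 CPM in Sham neurons, overlapped and had a log2 fold change of 0.71 ± 0.44. Leaving out 1 library moved both: without Sham 2 the log2 fold changes were 0.75 for Shox2 and 0.18 for Runx3, and without Sham 1 they were 1.75 and 1.56. The share of Pvalb neurons among all neurons, which held most UMIs of both genes, was 3.87% and 5.48% in CPIP 1 and CPIP 2 and 2.17% and 1.86% in Sham 1 and Sham 2. Its means were 4.68% ± 1.14 in CPIP and 2.01% ± 0.213 in Sham. The groups did not overlap for this share, as for 6 of the 11 subtype shares in all, and the two-sided exact permutation test gave p = 0.333, the smallest that 2 against 2 libraries allow. Without the Pvalb neurons Shox2 had 0.408 and 0.492 CPM in CPIP 1 and CPIP 2 and 0.378 and 0.236 CPM in Sham 1 and Sham 2, a log2 fold change of 0.54. The fold change of Runx3 was then -0.61, so its direction turned when those cells were left out. After the Pvalb neurons, the touch-like neurons held the most Runx3 UMIs, 60 of 570. Runx3 was at 43.7 CPM there in Sham 1 and at 2.88 to 8.75 CPM in the other libraries. Whether that library set the turned direction was not tested. Within the Pvalb neurons the log2 fold changes were -0.08 ± 0.26 for Shox2 (edgeR adjusted p = 0.966) and -0.22 ± 0.24 for Runx3 (edgeR adjusted p = 0.941).

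**Figure D5:**
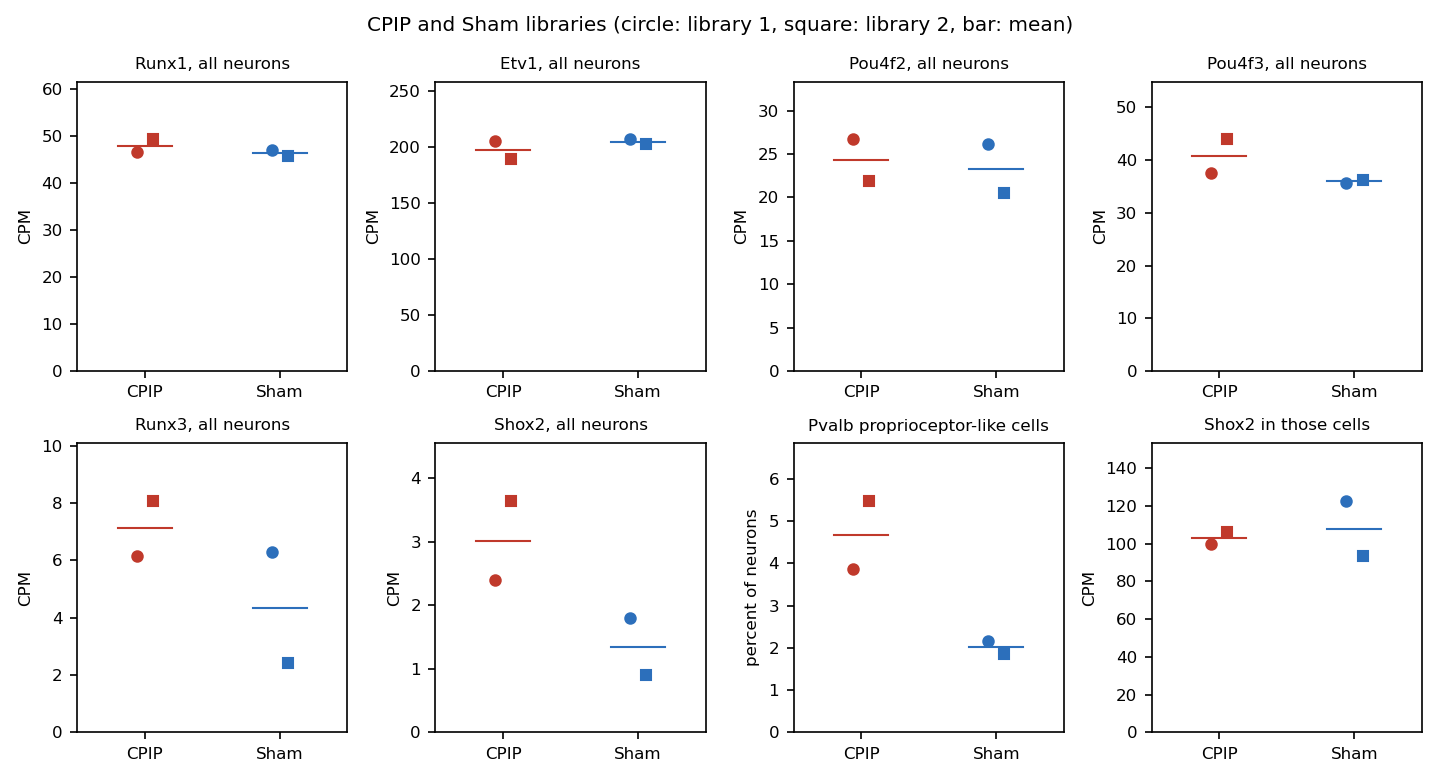
CPIP libraries (left in each panel) and Sham libraries (right) with a circle for library 1, a square for library 2 and a bar at the mean. The panels give levels in CPM or the share of Pvalb neurons in percent, as the axes say. For Shox2 in neurons both CPIP libraries lay above both Sham libraries, as did the share of Pvalb neurons, 3.87% and 5.48% against 2.17% and 1.86%.

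Fitted separately in each of the 11 subtypes, no factor was called. Runx1, Etv1 and Isl1 were tested in all 11 subtypes, Pou4f3 in 7, Pou4f2 in 6, Prdm12 in 2, Runx3 and Shox2 in the Pvalb neurons alone and Pou4f1 and Tlx3 in none. Across the subtypes there were 5 calls, some of the same gene in several subtypes, which made 0.0236% of the genes tested in Tafa4 neurons, 0.0235% in Anxa1-Asic2 neurons, 0.0107% in Mrgprb4 neurons and 0% in the other 8 subtypes. In the Sst-Nppb itch-like neurons Etv1 had 504 and 456 CPM in CPIP 1 and CPIP 2, both under the 621 and 595 CPM of Sham 1 and Sham 2. Its log2 fold change was -0.32 ± 0.10, with a p of 0.0116 before and 0.967 after edgeR's adjustment. Etv1 also had both CPIP libraries below both Sham libraries in the Mrgprb4, Adcyap1 and non-peptidergic-like neurons, with log2 fold changes of -0.14 ± 0.09, -0.32 ± 0.14 and -0.37 ± 0.27. It lay the other way in the Tafa4 neurons, with 18.1 and 15.8 CPM in CPIP 1 and CPIP 2 and at most 14.95 CPM in Sham, a log2 fold change of 0.25 ± 0.29. None of these passed the adjusted test with all libraries. Without CPIP 1 the subtypes had 2560 calls in all, with Etv1 in the Adcyap1 neurons as the single factor (log2 fold change -0.51, edgeR adjusted p = 0.0277). The fits without CPIP 2 gave 417 calls, 4 of them factors. Of all genes tested, 18.5%, 18.3%, 19.5% and 17.9% in the Sst-Nppb, Mrgprb4, Adcyap1 and non-peptidergic-like neurons lay below in the same way.

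Fold changes were small for 4 factors in the subtype where each was highest. In non-peptidergic-like neurons Runx1 had a log2 fold change of 0.10 ± 0.10, in Tafa4 neurons Pou4f2 had -0.08 ± 0.12, in S100a16-Sema5a neurons Pou4f3 had 0.08 ± 0.12, and in Pvalb neurons Etv1 had 0.07 ± 0.23 (SE). For Isl1 the groups did not overlap in the Tafa4 neurons, with 36.7 and 41.5 CPM in CPIP 1 and CPIP 2 and 28.5 and 31.1 CPM in Sham 1 and Sham 2 (log2 fold change 0.39 ± 0.20, edgeR adjusted p = 0.799), beside 17.5% of all genes tested there. They lay the other way in the Anxa1-Asic2 neurons, with 13.5 and 12.6 CPM in CPIP and 18.8 and 19.7 CPM in Sham (log2 fold change -0.51 ± 0.24, edgeR adjusted p = 0.825), beside 23.3% of all genes tested there. Isl1 also had both CPIP libraries below both Sham libraries in the Sst-Nppb neurons, with 5.05 and 6.72 CPM in CPIP and 12.9 and 8.12 CPM in Sham. There edgeR gave an adjusted p of 0.967 and a log2 fold change of -0.74 ± 0.44, and in the Adcyap1 neurons, where the groups lay the same way, -0.11 ± 0.19. Runx1 had both CPIP libraries above both Sham libraries in the Adcyap1, Anxa1-Asic2 and non-peptidergic-like neurons, with log2 fold changes of 0.12, 0.22 and 0.10, beside 15.9%, 13.1% and 13.5% of all genes. A test of whether the CPIP effect differed between subtypes called 7 of 10956 genes, 0.0639%, and none of the 7 factors tested. The smallest p among the factors was that of Runx3, 0.0487 before and 1.00 after edgeR's adjustment. With no filter on low counts that test called Runx3 (edgeR adjusted p = 0.0223), and the touch-like neurons, where Sham 1 alone had 43.7 CPM, had a log2 fold change of -2.69 (edgeR adjusted p = 0.00249).

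In the non-neuronal classes there were 19 calls, some of the same gene in several classes, and no factor among them: 0.228% of the genes tested in cycling cells, 0.0452% in macrophages, 0.0149% in non-myelinating Schwann cells, 0.0101% in endothelial cells and 0% in the others. Without CPIP 1 there were 2233 calls, with Runx1 in the unnamed glia-like class as the single factor (log2 fold change 0.46, edgeR adjusted p = 0.018). Runx1 was tested in 11 classes, Etv1 in 10, Runx3 in 3, Isl1 and Pou4f2 in 2, Pou4f3 and Shox2 in satellite glia alone and the other factors in none. For Runx1 both CPIP libraries lay above both Sham libraries in 7 classes and below in 1. In satellite glia Runx1 lay above, with 123 and 123 CPM in CPIP 1 and CPIP 2 and 101 and 99.0 CPM in Sham 1 and Sham 2. The log2 fold change was 0.32 ± 0.07, with a p of 0.0046 before and 0.980 after edgeR's adjustment. The direction was the same in the unnamed glia-like class with 70.7 and 75.5 CPM in CPIP and 51.7 and 57.5 CPM in Sham, a log2 fold change of 0.42 ± 0.11 (edgeR adjusted p = 0.937). Fibroblasts had 75.5 and 67.1 CPM in CPIP and 44.4 and 33.9 CPM in Sham, a log2 fold change of 0.81 ± 0.27 (edgeR adjusted p = 1.00). Endothelial cells had 18.4 and 20.8 CPM in CPIP and 12.5 and 13.2 CPM in Sham, a log2 fold change of 0.63 ± 0.23 (edgeR adjusted p = 0.944). None passed the test, and 12.7% of all genes tested in satellite glia, 16.6% in the glia-like class, 13.7% in fibroblasts and 14.6% in endothelial cells lay above in the same way. The other classes with Runx1 above were macrophages, cycling cells and myelinating Schwann cells, where 14.8%, 13.8% and 18.8% of all genes lay above, and it lay below in pericytes, beside 17.1% of all genes. The macrophages, with the highest Runx1 level, had 365 and 336 CPM in CPIP and 259.7 and 335 CPM in Sham, where CPIP 2 and Sham 2 were nearly equal. Runx3 in macrophages overlapped, with 669.6 and 563 CPM in CPIP and 610.4 and 684 CPM in Sham. Shox2 lay above in satellite glia, with 0.829 and 0.661 CPM in CPIP and 0.0569 and 0.452 CPM in Sham. Pou4f3 did so there with 1.45 and 1.18 against 0.910 and 0.858 CPM. Their log2 fold changes were 1.44 ± 0.71 and 0.59 ± 0.29 (edgeR adjusted p = 0.980 for both), beside 12.7% of all genes. Isl1 lay above in the glia-like class (log2 fold change 0.28 ± 0.43), beside 16.6%. Etv1 had both CPIP libraries below in 5 of 10 classes (satellite glia, the glia-like class, fibroblasts, macrophages and cycling cells, beside 19.9%, 17.1%, 15.2%, 18.8% and 21.8% of all genes) and above in smooth muscle, beside 19.4%. In cycling cells its fitted log2 fold change was nonetheless 0.0042. In smooth muscle it had 87.8 and 51.8 CPM in CPIP and 32.3 and 36.9 CPM in Sham, a log2 fold change of 0.96 ± 0.35 (edgeR adjusted p = 0.812).

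Of 45 other transcription factor genes known from sensory neurons, all were in the files, 34 passed the filter in neurons and none was called, 18 being higher in CPIP. The smallest p was that of Bcl11a, 0.0521 before and 0.971 after edgeR's adjustment, with 21.6 and 25.9 CPM in CPIP neurons and 18.3 and 20.05 CPM in Sham neurons. Meis2 with a log2 fold change of -0.35 ± 0.15, Meis1 with -0.51 ± 0.23 and Sox4 with -0.17 ± 0.08 followed, at the same adjusted p. Meis1 and Meis2 encode homeodomain factors, and Sox4 an HMG-box factor of developing neurons.

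The share of thinned neurons with a UMI of a factor was a further measure. At 4000 UMIs it left out most Pvalb and Kcnv1-Htr1b neurons. Etv1 was found in 28.5% and 29.4% of CPIP 1 and CPIP 2 neurons and in 30.9% and 31.4% of Sham 1 and Sham 2 neurons. Runx1 was in 17.8% and 17.9% of CPIP neurons and 17.6% and 17.3% of Sham neurons, a difference of under 1 percentage point. Runx3 was in 1.57% and 2.54% against 1.22% and 0.799%, and Shox2 in 0.810% and 1.24% against 0.715% and 0.329%. The groups did not overlap for 6 of the 10 factors, beside 32.6% of the 14027 genes compared in this way. Each of the 6 factors had an exact permutation p of 0.333, or 0.556 adjusted over the factors. Pou4f1 was counted among the 6 with 1 positive neuron in every library, so its shares differed by the number of neurons read alone. Prdm12 also was among them, with a difference of CPIP minus Sham of -0.226 percentage points at 4000 UMIs but 0.123 points at 2000 UMIs, so its direction turned with the depth. In satellite glia thinned alike, Pou4f2 was in 0.186% to 0.443% of cells against 5.03% to 7.0% of neurons, and Isl1 in 0.261% to 0.412% against 5.93% to 6.81%. Runx1 and Etv1 were in 30.4% to 37.7% and 67.6% to 71.4% of satellite glia, so for these genes the glia give no measure of the background in neurons.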

How the data were processed

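Single-cell capture was on the BD Rhapsody system, per the labels' protocols. The authors deposited whole-number UMI counts for each gene and barcode, not normalized, with at least 500 UMIs in each barcode. For these counts no aligner, build or annotation is named in the sources used here, so no coordinate comes from the files, and promoters come from RefSeq, build GRCr8. Duplicate or overlapping genes and strand could not be checked. The libraries shared 1 to 5 barcodes pairwise.

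Cells with at least 200 genes and at most 25% mitochondrial UMIs were kept, and scrublet as run in scanpy 1.11.5 marked 244 to 330 doublets per library, which were removed. Counts were scaled to 10000 per cell and clustered with Python 3.11.15 (2000 variable genes without the 10 factors, 30 components, 15 neighbours, Leiden resolution 1 for all cells and 0.5 for neurons). Names came from marker lists and leading genes. A minimum marker score of 0.25 on a log2 scale was set after the clusters were seen. Neurons mixed with glial genes (505 cells) and small clusters stayed in the neuron sums but were not counted as subtypes, and low-UMI neuron-like barcodes (6275 cells) were kept apart.

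UMI counts were summed per library and cell group and tested with edgeR 4.0.16 in R 4.3.3 (quasi-likelihood, TMM, default filter on low counts, group as the only term, Benjamini-Hochberg adjustment). DESeq2 1.42.0, other scaling, filters, cell sets, thinning depths and leaving out each library were alternatives. Counts were also simulated with 1 spread between libraries (dispersion 0.0205) for all genes. On these the neuron fit recovered 63.6% of 2-fold and 99.0% of 4-fold changed genes and called 0.0371% of unchanged ones. Spread differs between real genes and libraries, so these rates need not hold for the real data. A log2 fold change is CPIP over Sham. Thinning drew 4000 UMIs per neuron without replacement. Counting limits cover counting error only. By rule, all 10 factors were examined in each comparison, with the 3 genes of most similar profile for those of at least 20 CPM in a subtype, and of 45 other factors those that passed or else the 4 with the smallest p. The members and lists were chosen with earlier results of these data known. Single values of 1 of the 20 genes read beside the factors are not reported here.

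Replicate numbers are shared by the groups, but the labels do not say that they mark a pair.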

Additional observations from a re-analysis of the deposited data

How the results depend on the processing

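For the 13692 genes tested in neurons, RLE scaling gave 2 calls, no filter on low counts 2, DESeq2 11 and joining the low-UMI barcodes 1, against 0 in the reported fit. Leaving out each library gave 0 to 787 calls, of which 0 to 1 were factors. For the subtypes together, against 5 calls, no filter gave 649 with 1 factor, DESeq2 26, and leaving out a library 38 to 2560, of which 0 to 4 were factors. For the other classes, against 19 calls, no filter gave 432 and leaving out a library 103 to 2233, of which 0 to 1 were factors. The test of a difference between subtypes gave 205 calls with no filter. With the replicate number as a block the calls were 1 in neurons, 68 in subtypes and 101 in other classes. The deviations of same-numbered libraries correlated at -0.0937 in neurons and at -0.290 to -0.00788 in other classes. With 2 libraries per group these values cannot decide whether same-numbered libraries form a pair. Chosen after seeing the data, the crossed pairing gave 1, 59 and 270 calls, and leaving out the Pvalb neurons gave 2 calls in neurons. The causes were not tested.

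Directions turned for these log2 fold changes. Over the fits that leave out a library, in neurons Pou4f2 ranged from -0.10 to 0.26, Isl1 from -0.0054 to 0.17, Etv1 from -0.11 to 0.022 and Prdm12 from -0.017 to 0.22. In Pvalb neurons Runx3 ranged from -0.43 to 0.11, Shox2 from -0.27 to 0.23, Etv1 from -0.23 to 0.45 and Pou4f3 from -0.052 to 3.65, and without CPIP 2 Pou4f3 was called at 2.38 (edgeR adjusted p = 0.00117). Pou4f3 in S100a16-Sema5a neurons ranged from -0.021 to 0.17, Etv1 in Trpm8 neurons from -1.73 to 0.25 and Pou4f2 in Tafa4 neurons from -0.18 to 0.017. Prdm12 in neurons was -0.0063 with a stricter cell filter, Runx3 was -0.61 without the Pvalb neurons, and the ratio of Runx1 with Pou4f3 was 1.06 without thinning. The leading subtype was kept by 6 to 7 of 7 factors in every alternative clustering or cell set, Isl1 and Pou4f3 being the exceptions. With the factors allowed among the variable genes, S100a16 and Kcnv1 led 1 joint cluster of 1418 cells. The Pou4f3 difference between those subtypes could not be read there. With called doublets kept, Runx3 in Pvalb neurons was at 202 CPM against 267 CPM as reported, and Shox2 at 83.7 against 106 CPM. Pou4f1 and Tlx3 passed the filter on low counts in no cell group.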

Other observations

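The 6275 low-UMI neuron-like barcodes, with a median of 731 UMIs, were kept out of every comparison above except the fit that joined them to the neurons. They held Isl1 at 116 ± 7.58 CPM, Runx1 at 219.8 ± 23.2 CPM, Prdm12 at 21.0 ± 1.75 CPM, Etv1 at 108 CPM, Pou4f2 at 42.8 ± 9.29 CPM, Runx3 at 15.3 ± 5.95 CPM and Pou4f3 at 11.3 ± 4.57 CPM (SD, n = 4 libraries). For Isl1, Runx1 and Prdm12 these levels were above those of each of the 11 neuron subtypes, and for the other 4 they were not.

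A textbook marker of a sensory neuron subtype, Th, the enzyme that marks C-LTMRs in mice, had no UMI in the Tafa4 C-LTMR-like neurons and at most 4.22 CPM in any subtype. Whether the annotation behind the counts takes up all its RNA was not tested. Of the listed C-LTMR markers, 3 were detected in at least 10% of the Tafa4 neurons and 2 were among their 10 leading genes. The rest of the list was below that share, so the name rests on part of it.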
